A study of Mus musculus with 5 samples.

Results

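The genes described here are 44 members of the TGF-beta and BMP signalling pathways, taken by symbol from a named list: 12 ligand genes, 10 receptors and co-receptors, 7 antagonists, 6 signalling Smads, 2 inhibitory Smads, 4 Id genes and 3 Smad repressors. No cutoff on measured values entered the rule, although the list was drawn up with earlier results of these data known. All 44 members were matched among the 56941 gene identifiers of the count table, and all 44 reached the minimum of 10 counts in at least 1 library, as did 19713 genes in total.

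RNA was sequenced from the iridocorneal angle, the ring of tissue between cornea and iris that drains aqueous humor, in 3 pools of DBA/2J mice and 2 pools of Gpnmb+ mice. DBA/2J mice carry the Gpnmb R150X and Tyrp1 b alleles and develop pigmentary glaucoma. The Gpnmb+ mice are the strain DBA/2J-Gpnmb+/Sj, in which functional Gpnmb is restored and Tyrp1 b is retained, so both groups carry the Tyrp1 allele. All mice were 12 months old by the labels, of both sexes according to the methods, and received no agent. Each pool is described as 3 mice, whereas the library names list 3 animals for each DBA/2J pool and 2 for each Gpnmb+ pool. The dissected ring can hold remnants of iris and ciliary body. No pool has a pressure reading attached to it. Each gene's p-value sets the difference between genotypes against the spread between these pools only, with variances moderated across all tested genes.

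TGF-beta family ligands bind pairs of type I and type II receptor kinases, which phosphorylate receptor Smads that enter the nucleus with Smad4. TGF-beta and activin ligands act mainly through Smad2 and Smad3, and the BMP and GDF ligands among the members through Smad1, Smad5 and Smad9. Secreted antagonists such as gremlin, noggin and chordin bind BMPs outside the cell, and Smad6, Smad7 and the pseudoreceptor Bambi damp the signal in the receiving cell. In the outflow tissue of the eye, TGF-beta2 is known for promoting deposition of extracellular matrix, and BMPs and their antagonists are known to modify that action.

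Library totals ranged from 43900661 to 49837758 counts on genes. Values below are listed in pool order, DBA/2J before Gpnmb+. The targeted gene checked the labels: Gpnmb had 2042, 2234 and 1946 counts in DBA/2J against 129659 and 110568 in Gpnmb+, and its log2 fold change was -5.67 (adjusted p = 0.000231). The pools also differed in sex-linked RNA. Xist, the RNA that coats the inactive X, stood at 13.4, 0 and 54.2 CPM (counts scaled to library size with TMM) in DBA/2J against 155 and 187 CPM in Gpnmb+, and 4 Y-linked genes summed to 159, 199 and 66.2 against 0.0394 and 0.102 CPM. RNA of males was therefore near 0 in both Gpnmb+ pools, although the methods list males in that group, and sex and genotype cannot be told apart in any value below. Of the 8 markers of nonpigmented ciliary epithelium, all were higher in every DBA/2J pool and 3 were called. Together the markers reached 976, 1125 and 1261 CPM in DBA/2J against 405 and 233 CPM in Gpnmb+. The 5 trabecular meshwork markers found in the table, which stand for the labelled drainage tissue, were detected in every pool and summed to 1459, 1515 and 1607 against 1711 and 1684 CPM. They went both ways: Cyp1b1 was called higher (log2 fold change 0.81, adjusted p = 0.0467) and Pdpn was higher in every DBA/2J pool, while Myoc and Angptl7 were lower in every one. The 5 Schwann cell markers summed to 144, 192 and 164 against 251 and 309 CPM, with 2 called lower, and the 6 skeletal muscle markers to 144, 197 and 382 against 135 and 82.0 CPM, with none called. In bulk tissue, fewer cells of a type and less RNA per cell cannot be told apart.

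Ligands and antagonists held the member that was called and most of those with an unadjusted p of at most 0.05, whereas separation of the pools, often by small margins, was also common among receptors and Smads. Calling a gene required edgeR's quasi-likelihood test to give an adjusted p of at most 0.05 (Benjamini-Hochberg, over all 19713 genes) with a 1.5-fold or larger change. By that rule 1 member, Bmp4, rose in DBA/2J and none fell. That is 2.27% of members beside 0.796% of all tested genes, of which 0.502% rose and 0.294% fell. An unadjusted p of at most 0.05 was reached by 18 members, 13 of them higher and 5 lower in DBA/2J, which is 40.9% of members beside 15.9% of all tested genes (8.31% higher and 7.6% lower). The pools of the genotypes did not overlap for 30 members, 21 higher and 9 lower, or 68.2% beside 34.5% of all tested genes (17.3% higher and 17.2% lower). The median log2 fold change was 0.14 over the members and -0.02 over all tested genes. The members were also more abundant, with a median level of 46.3 CPM beside 12.2 CPM over all tested genes, and the part of that abundance in the shares was not tested. Among the 12 ligands, 9 (75.0%) had an unadjusted p of at most 0.05, and among the 7 antagonists 5 (71.4%) did. This was so for 3 of the 19 receptors, signalling Smads and Smad repressors (15.8%), and for 1 of the 6 genes made up of the Id genes, Smad6 and Smad7 (16.7%). By non-overlap of the pools the roles were closer, with 83.3% of ligands, 71.4% of antagonists, 68.4% of receptors, signalling Smads and Smad repressors, and 33.3% of the Id genes, Smad6 and Smad7. Smad2, Smad3, Smad4 and all 3 Smad repressors were among the separated genes. Bambi, which the pathway itself induces, is counted here with the antagonists, and without it 4 of 6 antagonists (66.7%) had such a p. DESeq2's Wald test called 11 members at the same thresholds, Bambi, Bmp2, Bmp4, Chrdl1, Fstl3, Gdf6, Grem1, Inhba, Inhbb, Nog and Tgfb2, where it called 4.70% of all tested genes. With ashr-moderated fold changes it called 7 members and 3.72% of all tested genes.

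**Figure D1:**
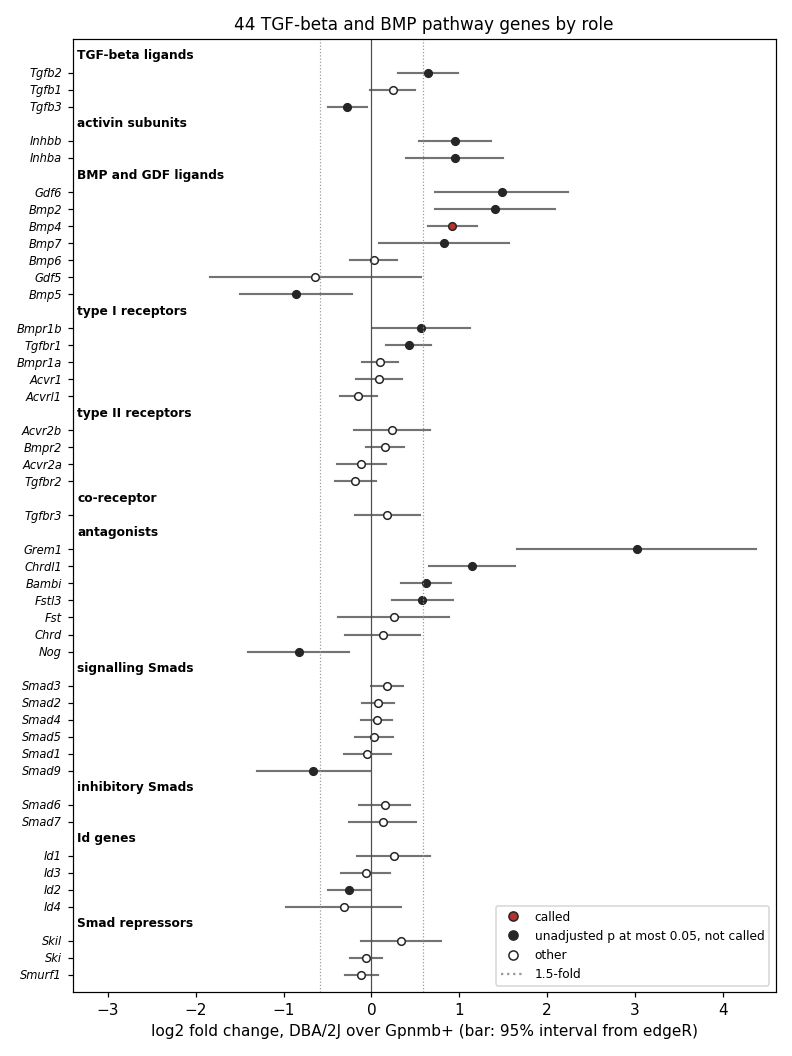
Log2 fold change of each of the 44 genes, DBA/2J over Gpnmb+, grouped by role, with 95% intervals from edgeR and dotted lines at 1.5-fold. The red point is Bmp4, the called gene; the 17 other filled points reached an unadjusted p of at most 0.05, and most of them are ligands or antagonists.

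Of the members, 6 genes, Bmp2, Bmp4, Chrdl1, Gdf6, Grem1 and Bambi, also stand in a TGF-beta cluster that the study drew up from its own differential genes in these pools, so their direction is not independent evidence. All 6 had an unadjusted p of at most 0.05 and a positive fold change, with a median log2 fold change of 1.28. All are ligands or antagonists, so the shares given above for those roles rest in part on them. Of the 38 members outside that cluster, 7 were higher and 5 lower at that p (31.6% beside 15.9% of all tested genes), with a median of 0.09.

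The promoter sequences of 3 genes are shown because the comparison turns on them: Bmp4, the called ligand; Grem1, the antagonist with the largest fold change; and Id1, a direct BMP-Smad target. Each run is the 250 bases before the start of the Ensembl canonical transcript, read 5′ to 3′ on the gene's strand from GRCm39. Capitals mark CAGAC, a Smad-binding motif, or its reverse complement GTCTG, and GGCGCC, a GC-rich motif bound by Smads, searched on both strands.
Bmp4: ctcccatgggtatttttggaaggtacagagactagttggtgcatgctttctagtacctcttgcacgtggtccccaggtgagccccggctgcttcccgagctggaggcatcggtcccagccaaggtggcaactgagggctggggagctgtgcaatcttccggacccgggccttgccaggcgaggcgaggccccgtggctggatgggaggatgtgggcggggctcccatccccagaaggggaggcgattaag
Grem1: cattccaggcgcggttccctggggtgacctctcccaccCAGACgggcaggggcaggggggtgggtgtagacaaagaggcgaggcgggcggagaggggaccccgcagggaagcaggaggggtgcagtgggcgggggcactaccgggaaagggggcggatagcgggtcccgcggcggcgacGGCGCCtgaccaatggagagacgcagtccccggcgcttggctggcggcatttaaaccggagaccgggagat
Id1: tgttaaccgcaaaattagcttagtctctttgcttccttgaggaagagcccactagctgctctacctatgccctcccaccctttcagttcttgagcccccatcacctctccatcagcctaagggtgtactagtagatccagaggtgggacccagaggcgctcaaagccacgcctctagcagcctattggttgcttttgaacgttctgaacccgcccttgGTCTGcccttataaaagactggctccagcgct
They lie at chr14:46628127-46628376 on the minus strand for Bmp4, chr2:113589001-113589250 on the minus strand for Grem1 and chr2:152577915-152578164 on the plus strand for Id1. The Grem1 window holds CAGAC from base -212 and GGCGCC from base -71, counted back from the transcript start, and the Id1 window GTCTG from base -32. Neither motif is in the Bmp4 window. CAGAC or its complement was found in 20 of the 44 members' windows (45.5%) and in 41.4% of 21757 protein-coding promoters of the same length. GGCGCC was found in 11 of 44 (25.0%) and in 9.32% of all promoters, and the members' windows had a median GC content of 65.8% beside 53.2%. These are matches of letters, and they carry no measurement of Smad binding.

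The TGF-beta ligands did not all lie on the same side, and none was called, beside 0.796% of all tested genes. Tgfb2 stood at 270.1, 284 and 278 CPM in DBA/2J against 203 and 150.4 CPM in Gpnmb+. Every DBA/2J pool was above both Gpnmb+ pools, and the fold change was 1.57 with a log2 fold change of 0.65 ± 0.14 (SE) that missed the adjusted threshold (adjusted p = 0.108, edgeR). Tgfb3, the ligand of this group with the highest level per exon length in the Gpnmb+ pools, was lower in DBA/2J, at 174, 198 and 178 against 223 and 221 CPM. Its pools did not overlap either, and its log2 fold change was -0.28 ± 0.09 (SE) (adjusted p = 0.232). Tgfb1, the form abundant in platelets and immune cells, stood at 69.2 ± 4.29 CPM (SD, n = 3) in DBA/2J and 58.6 ± 6.60 CPM (SD, n = 2) in Gpnmb+, with an interval of -0.02 to 0.50 on the log2 scale. The ratio of Tgfb2 to Tgfb3, each in RPKM (CPM per kilobase of exon), was 1.29, 1.19 and 1.30 in DBA/2J against 0.757 and 0.567 in Gpnmb+, so Tgfb2 was above Tgfb3 in every DBA/2J pool and below it in both Gpnmb+ pools. This ratio was chosen after the values were seen. The 3 ligands summed to 91.1, 96.5 and 91.6 RPKM in DBA/2J against 87.7 and 77.0 RPKM in Gpnmb+.

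Both activin subunit genes were higher in every DBA/2J pool. Inhbb, which encodes the beta B subunit of activins and inhibins, had 58.0, 49.8 and 52.0 CPM in DBA/2J against 32.3 and 22.7 CPM in Gpnmb+, a fold change of 1.94, or on the log2 scale 0.95 ± 0.17 (SE) (adjusted p = 0.0721, edgeR). Inhba, the beta A subunit, had 22.4, 13.5 and 17.3 CPM against 8.69 and 9.63 CPM, a log2 fold change of 0.95 ± 0.23 (SE) (adjusted p = 0.131). DBA/2J pool 1 held the highest Inhba value and pool 2 the lowest of its genotype. The gap between the genotypes was wider than the range within Gpnmb+ but narrower than the range within DBA/2J.

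Bmp4 was the only member to pass the test. The gene (ENSMUSG00000021835, GRCm39 chr14:46620250-46636745) encodes a BMP that signals through type I receptors such as Bmpr1a. Its counts were 2639, 2581 and 2860 in DBA/2J against 1804 and 1419 in Gpnmb+, or 59.4, 60.1 and 64.1 CPM against 35.6 and 29.0 CPM. The means were 61.2 ± 2.55 CPM (SD, n = 3) and 32.3 ± 4.63 CPM (SD, n = 2), and the log2 fold change was 0.92 ± 0.11 (SE), 95% interval 0.65 to 1.20, adjusted p = 0.0379 by edgeR. The 3 DBA/2J pools lay close together, and the lowest of them was above the higher Gpnmb+ pool. The fold change held its direction with any pool left out (0.78 to 1.08 on the log2 scale). The call was lost with any of the DBA/2J pools left out, at an adjusted p of 0.116 to 0.126 in edgeR. Those fits called 1 to 17 genes in all, beside 157 with every pool. Annotated exons of 2 long noncoding RNAs on the opposite strand cover part of Bmp4, and both had at most 10 counts in any pool.

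The BMP and GDF ligands held 4 other genes that differed at an unadjusted p of at most 0.05 without passing the adjusted threshold. Bmp2, a close relative of Bmp4, had 114, 61.0 and 90.0 CPM in DBA/2J against 37.6 and 29.0 CPM in Gpnmb+, a fold change of 2.66, or on the log2 scale 1.41 ± 0.28 (SE) (adjusted p = 0.0885, edgeR). Its DBA/2J pools were spread over a wide range, but the lowest was still above both Gpnmb+ pools. Bmp7, which has roles in ciliary body and lens development, had 66.9, 68.1 and 100.0 CPM against 57.4 and 31.2 CPM. The Bmp7 groups did not overlap, yet the pools within each genotype were far apart: its log2 fold change was 0.82 ± 0.30 (SE) (adjusted p = 0.274) and ranged from 0.45 to 1.33 as single pools were left out. Gdf6, a ligand known for its part in eye and joint development, was rare, at 60, 49 and 77 counts in DBA/2J against 25 and 25 in Gpnmb+, or 1.48 ± 0.31 (SE) on the log2 scale (adjusted p = 0.100). Bmp5 went the other way, with 30, 33 and 40 counts against 70 and 71, a log2 fold change of -0.86 ± 0.26 (SE) (adjusted p = 0.199). The strand setting of the counting is not stated, and 46.6% of the Bmp5 exon length is shared with a noncoding RNA on the opposite strand that was listed at 0 counts. Bmp6 overlapped between the genotypes, at 25.1, 29.9 and 26.5 against 26.0 and 27.2 CPM, and Gdf5 had between 6 and 20 counts per pool and also overlapped.

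Summed per exon length, the 7 BMP and GDF ligands came to 58.2, 48.3 and 61.8 RPKM in DBA/2J against 35.1 and 26.5 RPKM in Gpnmb+. The sums did not overlap, and nearly all of each came from Bmp2, Bmp4, Bmp6 and Bmp7. The ciliary epithelium markers given above were higher in the same pools, and Gpnmb+ pool 2, which had the lower marker sum of the Gpnmb+ pools, also had the lower value for Tgfb2, Inhbb, Bmp2, Bmp4 and Bmp7, but not for Inhba or Gdf6. Within DBA/2J the marker sum was lowest in pool 1. Tgfb2, Bmp4 and Bmp7 were also lowest there, whereas Bmp2, Inhba and Inhbb were highest there and Gdf6 was neither. The part of these cells in the ligand values was not tested.

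**Figure D2:**
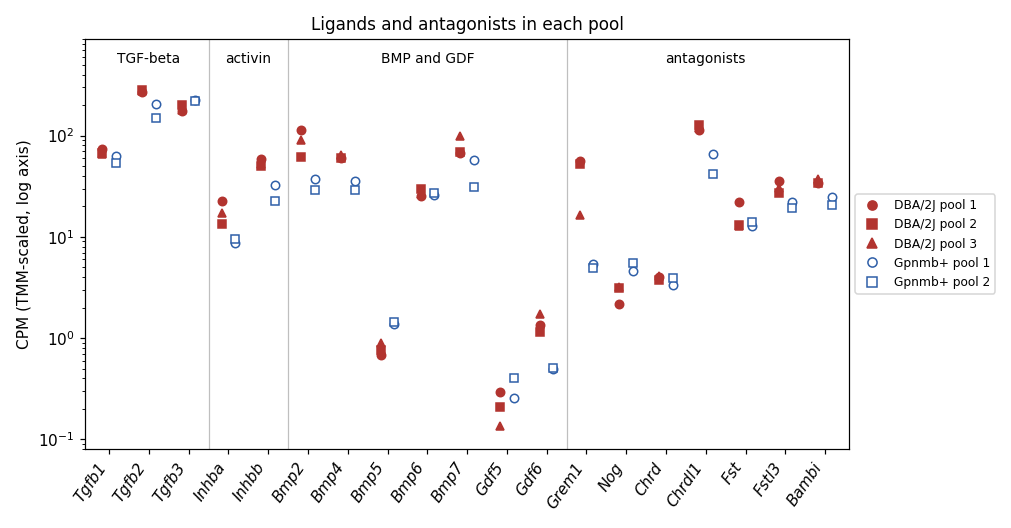
CPM of the 12 ligands and 7 antagonists in each of the 5 pools on a log axis, DBA/2J filled and Gpnmb+ open. Grem1 has the widest gap, from 16.6 to 56.3 CPM in DBA/2J and 4.93 to 5.36 CPM in Gpnmb+, while Tgfb3, Bmp5 and Nog lie lower in DBA/2J.

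The antagonists were split between Grem1 and the chordin relative Chrdl1 on one side and Nog on the other. Grem1 (ENSMUSG00000074934, GRCm39 chr2:113576509-113589000) encodes gremlin, which binds BMP2, BMP4 and BMP7. Its counts were 2505, 2238 and 740 in DBA/2J against 272 and 241 in Gpnmb+, or 56.3, 52.1 and 16.6 CPM against 5.36 and 4.93 CPM. DBA/2J pool 3 stood far below the other DBA/2J pools and still well above both Gpnmb+ pools. The fold change was 8.10, with a log2 fold change of 3.02 ± 0.56 (SE), 95% interval 1.66 to 4.38, and it missed the adjusted threshold (adjusted p = 0.0810, edgeR). Without DBA/2J pool 3 it was called, at a log2 fold change of 3.40 (adjusted p = 0.00755).

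Chrdl1, an X-linked gene for a secreted BMP antagonist that lies at GRCm39 chrX:142068670-142177258, had 112, 127 and 117 CPM in DBA/2J against 65.8 and 41.3 CPM in Gpnmb+. The lowest DBA/2J pool was above the higher Gpnmb+ pool, and the log2 fold change was 1.15 ± 0.20 (SE) (adjusted p = 0.0721, edgeR). As for every member, and here for a gene on the X chromosome, sex and genotype cannot be told apart. Fstl3, which binds activins and myostatin, had 35.4, 27.1 and 30.1 against 21.9 and 19.4 CPM, with a log2 fold change of 0.58 ± 0.14 (SE) (adjusted p = 0.138). It shares 47.1% of its exon length with Prss57 on the opposite strand, which had at most 8 counts in any pool, and the strand setting is not stated. Bambi, a membrane pseudoreceptor that lacks a kinase domain and is itself induced by the pathway, had 33.7, 33.7 and 37.1 against 24.8 and 20.5 CPM, with a log2 fold change of 0.62 ± 0.12 (SE) (adjusted p = 0.0858). For all 3 genes, each DBA/2J pool exceeded both Gpnmb+ pools.

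Nog, the gene for noggin, was lower in DBA/2J, with 96, 135 and 144 counts against 234 and 268, or 2.16, 3.14 and 3.23 against 4.61 and 5.48 CPM. The groups did not overlap, and the log2 fold change was -0.83 ± 0.24 (SE) (adjusted p = 0.178, edgeR). Schwann cell markers were lower in the same pools, and their part in the Nog and Bmp5 values was not tested. Fst, the follistatin gene, overlapped, at 22.0, 13.2 and 12.8 against 12.9 and 13.9 CPM, and its fold change was below 0 on the log2 scale without DBA/2J pool 1 (-0.04). Chrd also overlapped between the genotypes.

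Per exon length, Grem1 amounted to 0.377, 0.509 and 0.126 of the sum of Bmp2 and Bmp4 in DBA/2J, against 0.0866 and 0.101 in Gpnmb+. For Nog the same ratio was 0.0354, 0.0753 and 0.0602 in DBA/2J against 0.183 and 0.274 in Gpnmb+. Grem1 was thus larger against these ligands in every DBA/2J pool, by a narrow margin in pool 3, and Nog smaller. Both ratios are of RNA levels in whole tissue and were chosen after the values were seen. The 7 antagonists summed to 57.6, 54.0 and 46.0 RPKM in DBA/2J against 30.6 and 25.9 RPKM in Gpnmb+, a sum in which Chrdl1 is the largest term when averaged over the pools. The ciliary epithelium markers were higher in the same pools as Grem1, Chrdl1, Fstl3 and Bambi. Within DBA/2J the marker sum was lowest in pool 1 and highest in pool 3. Grem1 was lowest in pool 3 and Fstl3 highest in pool 1, whereas Chrdl1 was lowest in pool 1. Bambi was level in pools 1 and 2 (33.7 CPM in each) and highest in pool 3. The part of these cells in the antagonist values was not tested.

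The receptors gave no call. Over all tested genes 0.796% were called, a share too low for the lack of a call to set so few genes apart. Of the 10 receptor and co-receptor genes, 4 were higher and 2 lower in every DBA/2J pool than in Gpnmb+ (60.0% beside 34.5% of all tested genes), and 2 had an unadjusted p of at most 0.05 (20.0% beside 15.9%). Tgfbr1, the type I receptor for TGF-beta, had 195, 206 and 171 CPM in DBA/2J against 138 and 146 CPM in Gpnmb+, so that every DBA/2J pool was higher, with a log2 fold change of 0.42 ± 0.11 (SE) and an interval of 0.17 to 0.68 (adjusted p = 0.142, edgeR). Bmpr1b, a type I BMP receptor, had 6.41, 10.4 and 8.97 against 5.62 and 5.97 CPM, a log2 fold change of 0.57 ± 0.23 (SE) (adjusted p = 0.304). The other type I receptors, Bmpr1a, Acvr1 and Acvrl1, had log2 fold changes of 0.10, 0.09 and -0.15. Among the type II receptors, Acvr2b, which binds activins and some BMPs, had the largest fold change, at 4.68, 4.99 and 5.81 against 4.65 and 4.11 CPM, with a log2 fold change of 0.24 ± 0.18 (SE) (adjusted p = 0.570). Tgfbr2, Bmpr2 and Acvr2a had log2 fold changes of -0.18, 0.16 and -0.11. Acvr2a shares 30.5% of its exon length with Orc4 on the opposite strand, so its value is uncertain. Tgfbr3, the betaglycan co-receptor that presents TGF-beta2 to its receptors, overlapped between the groups at 175, 171 and 197 against 185 and 134 CPM, and its interval was -0.19 to 0.56.

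The 6 signalling Smads gave no call either, beside 0.796% of all tested genes. Smad1, Smad2, Smad3, Smad4 and Smad5 had log2 fold changes of -0.05, 0.08, 0.18, 0.06 and 0.03, with adjusted p from 0.332 to 0.908 in edgeR. Smad9, a BMP-responsive Smad that can also dampen the BMP signal, was the exception in size, with 11.9, 16.1 and 23.2 CPM in DBA/2J against 27.8 and 26.2 CPM in Gpnmb+. It was lower in every DBA/2J pool, most of all in pool 1, with a log2 fold change of -0.66 ± 0.26 (SE) (adjusted p = 0.304). The summed level of the 6 genes was 55.7, 56.9 and 59.6 RPKM in DBA/2J against 56.1 and 56.5 RPKM in Gpnmb+. Of the 3 Smad repressors, Skil, which is induced by TGF-beta and represses Smad-dependent transcription, had the largest fold change, at 169, 111 and 123 against 108 and 104 CPM and 0.34 ± 0.19 (SE) on the log2 scale (adjusted p = 0.433). That value rested largely on DBA/2J pool 1, and it was 0.14 without it. Ski and the ubiquitin ligase Smurf1 had log2 fold changes of -0.06 and -0.12.

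**Figure D3:**
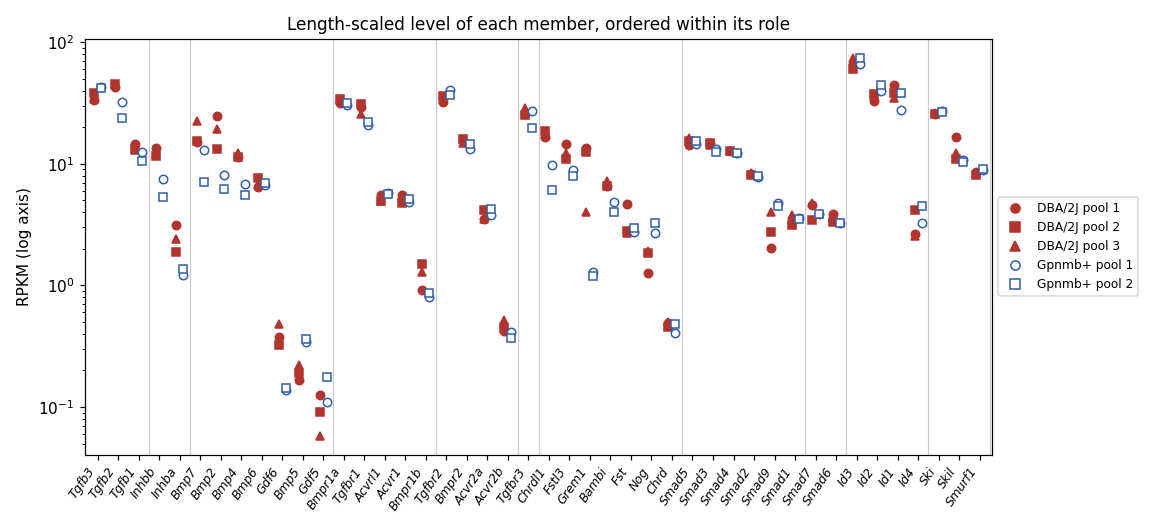
RPKM of every member in each pool on a log axis, ordered within each role by the mean over all pools. Id3 is the highest member in every pool, and the Gpnmb+ points of Smad9, at 4.49 and 4.76 RPKM, lie above its DBA/2J points, at 2.04 to 3.98 RPKM.

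The Id genes, which are direct targets of BMP-activated Smads and block basic helix-loop-helix factors, gave no call, beside 0.796% of all tested genes. Id1 had 79.1, 67.4 and 62.1 CPM in DBA/2J against 49.0 and 67.5 CPM in Gpnmb+, and the groups overlapped, with Gpnmb+ pool 2 level with the middle DBA/2J pool. Its log2 fold change was 0.25 ± 0.17 (SE) with an interval of -0.16 to 0.67 (adjusted p = 0.521, edgeR). Id3 had 119.7, 107 and 133 against 119 and 132 CPM, with a log2 fold change of -0.06 ± 0.12 (SE) and an interval of -0.35 to 0.22, inside a 1.5-fold change in either direction. Id2 was slightly lower in every DBA/2J pool, at 115, 132 and 126 against 139 and 156 CPM, a log2 fold change of -0.25 ± 0.10 (SE) (adjusted p = 0.297). Id4 had 12.2, 19.3 and 11.7 against 15.0 and 20.9 CPM, overlapping, and its wide interval of -0.97 to 0.33 leaves changes of over 1.5-fold within it. The Id genes summed to 147, 139.8 and 148 RPKM in DBA/2J against 137 and 161 RPKM in Gpnmb+, and the Gpnmb+ pools were the lowest and the highest of the 5.

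Smad6 and Smad7, the inhibitory Smads that pathway activity induces as feedback, were also close. Smad6 had 13.6, 11.9 and 13.2 CPM against 11.6 and 11.6 CPM, higher in every DBA/2J pool by a small margin, with a log2 fold change of 0.15 ± 0.12 (SE) and an interval of -0.14 to 0.44. Smad7 had 21.7, 16.4 and 22.4 against 18.5 and 18.4 CPM, overlapping, with a log2 fold change of 0.13 ± 0.16 (SE) and an interval of -0.26 to 0.51 (adjusted p = 0.746, edgeR). Over the Id genes, Smad6 and Smad7 the median log2 fold change was 0.03, beside 0.74 over the 12 ligands, 0.58 over the 7 antagonists (0.42 without Bambi) and -0.02 over all tested genes. These medians are descriptions, and the difference between the groups of genes was not tested. The ligands and antagonists hold all 6 members of the TGF-beta cluster that the study drew from these pools. The Id genes, Smad6 and Smad7 hold none of them, so the medians are not independent of that choice. Over the 38 members outside that cluster the median was 0.09.

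**Figure D4:**
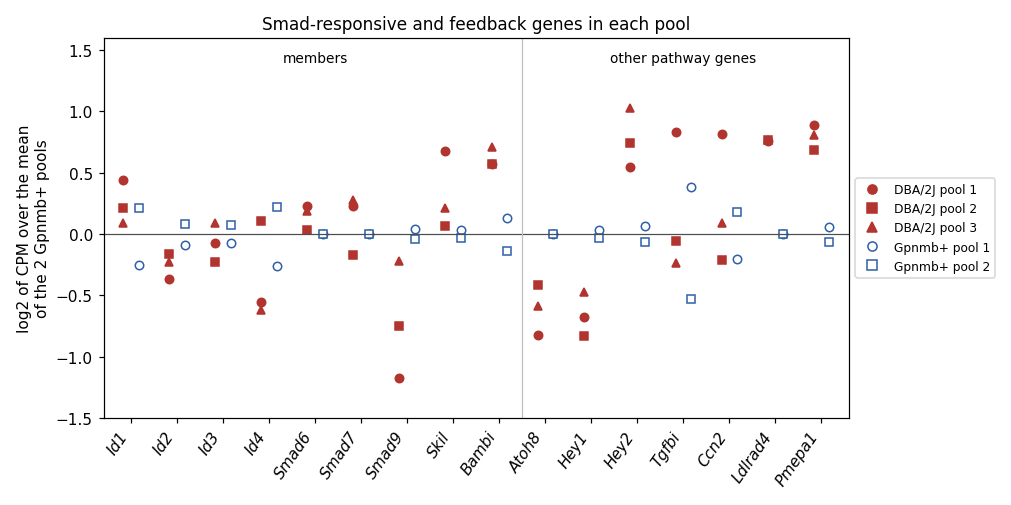
Log2 of CPM over the mean of the Gpnmb+ pools for 9 Smad-responsive or feedback members and 7 pathway genes outside the 44, in each pool. The Id genes, Smad6 and Smad7 lie on both sides of 0, with Id2 below 0 and Id1 and Smad6 above 0 in every DBA/2J pool. Pmepa1, at 153 to 176 CPM in DBA/2J against 91.1 and 99.2 CPM in Gpnmb+, is above 0 in every DBA/2J pool. So are Ldlrad4, Bambi, Skil and Hey2, whereas Smad9, Hey1 and Atoh8 are below 0 in every DBA/2J pool.

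A further 59 pathway genes were used to set the members in context, of which 46 passed the count minimum. Of these 46, 2 rose in DBA/2J and none fell (4.35% beside 0.796% of all tested genes), while 8 were higher and 8 lower at an unadjusted p of at most 0.05 (34.8% beside 15.9%). The called genes were Pmepa1 and Ldlrad4, both known to be induced by TGF-beta. Pmepa1, which encodes a membrane protein that binds receptor Smads and limits TGF-beta signalling, had 176, 153 and 167 against 99.2 and 91.1 CPM, with a log2 fold change of 0.80 ± 0.10 (SE) (adjusted p = 0.0379, edgeR). Ldlrad4, a relative of Pmepa1 with a like role, had 29.2, 29.4 and 29.4 against 17.3 and 17.2 CPM, with both groups tightly clustered, at 0.77 ± 0.09 (SE) on the log2 scale (adjusted p = 0.0350). With a DBA/2J pool left out, neither Pmepa1 nor Ldlrad4 was called. Those fits called 1 to 17 genes in all, beside 157 with every pool. With any pool left out, the log2 fold change was 0.74 to 0.86 for Pmepa1 and 0.77 for Ldlrad4.

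The remaining 44 of these genes gave no call. Among the 7 targets outside the members, Tgfbi and Ccn2, chosen here after their values were seen, had overlapping pools, at 440.3, 237 and 210.1 against 323 and 171 CPM and 1160, 568 and 701 against 571 and 743 CPM. Tgfbi encodes a matrix protein named for its induction by TGF-beta, and Ccn2 encodes connective tissue growth factor. The BMP-responsive transcription factors Hey1 and Atoh8, and Hey2, a relative of Hey1, also chosen afterwards, had log2 fold changes of -0.65 ± 0.14 (SE), -0.60 ± 0.16 (SE) and 0.79 ± 0.21 (SE) (adjusted p = 0.111, 0.162 and 0.161). Of the 11 tested extracellular modulators none was called, with 2 higher and 3 lower at an unadjusted p of at most 0.05. Of the 13 tested genes listed as other ligands, 6 had such a p (46.2%) and none was called. Bmp1, among these 6, encodes a protease in spite of its name and is not a ligand of this family. Of the 5 other receptors none had such a p or was called, beside 0.796% called over all tested genes.

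**Figure D5:**
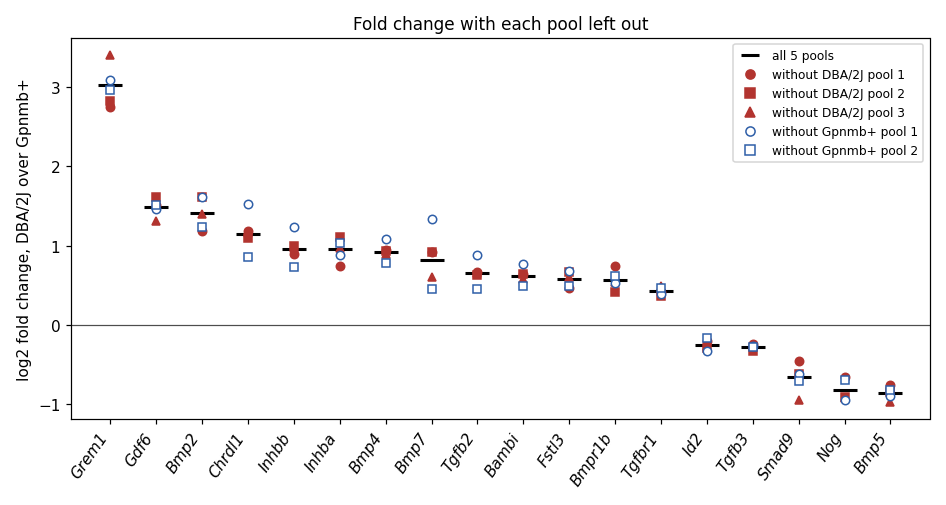
Log2 fold change of the 18 members with an unadjusted p of at most 0.05, for all 5 pools (bar) and with each pool left out (points). No point crosses 0, and Bmp7 spans 0.45 to 1.33, the widest range of the 18.

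All 18 members kept their direction with any single pool left out. Grem1 was the only member called without DBA/2J pool 3, and no member was called without DBA/2J pool 1 or pool 2. Those fits called 17, 6 and 1 genes in all, beside 157 with every pool, so calls were lost over all genes and not only among members. Fits without a Gpnmb+ pool leave 1 pool in that group, and their calls are not listed by gene here. DBA/2J pool 3 was the highest of its genotype for 18 of the 44 members and pools 1 and 2 for 14 and 12, so no DBA/2J pool set the order throughout.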

How the data were processed

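Reads had been cleaned by the authors using fastp and mapped using STAR (GRCm39, Ensembl 110), and the deposited values are raw counts of uniquely aligned paired reads per gene, without normalization. The strand setting is not given in the sources used here. Every column was used. Symbols, coordinates and union exon lengths came from GENCODE M39, which held 56323 of the 56941 identifiers. The 19713 genes reaching 10 counts in 1 or more pools were tested with edgeR 4.0.16 in R 4.3.3 (TMM scaling, quasi-likelihood test, no covariate). CPM are TMM-scaled, and RPKM are CPM per kilobase. The common biological coefficient of variation was 20.74%. Intervals are 95%. Alternatives used DESeq2 1.42.0, ashr 2.2.63 and limma 3.58.1. Scripts were tested on simulated data. The 44 members, the 59 other pathway genes and the marker lists were chosen with earlier results of these data known. Per-pool values are given for called members, those at an unadjusted p of at most 0.05, the largest fold change in each role, the Id genes, Smad6 and Smad7. Promoters were read from the genome, and tables were made with Python 3.11.15. Endothelial, smooth muscle, corneal epithelial, keratocyte, pigment cell and macrophage marker sums overlapped between the genotypes. Such sums follow the most abundant markers. The pigment cell marker Slc45a2 was called lower (adjusted p = 0.0262, edgeR). Among markers not called, Krt12 and Kera were lower in every DBA/2J pool, and Tyr and C1qa higher in every one. Angptl7 is in both the keratocyte and the trabecular meshwork lists. Results for some pathway genes are not reported here.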

Additional observations from a re-analysis of the deposited data

How the results depend on the processing

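The rarest members were Gdf5, with 6 to 20 counts, and Bmp5 and Gdf6, with at most 77. A fit without 1 Gpnmb+ pool assumes that the lone pool varies like the DBA/2J pools. Of the 44 members, 38 kept their direction in all 12 other fits, and the 6 that did not had log2 fold changes of at most 0.26 in size. The median over all genes moved by at most 0.02 between fits. The number of members called, 1 with edgeR, was 11 with DESeq2's Wald test, 7 with ashr moderation, 5 with no count filter, 13 with unadjusted p-values and 0 to 4 with a pool left out. The count over all genes, 157, became 927, 734, 360, 1710 and 1 to 217 under the same settings, and the count of other pathway genes, 2, became 9, 5, 3, 13 and 0. DESeq2's size factors in edgeR, limma-voom, filterByExpr and no fold change minimum left 1 member called. The causes were not tested.

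The genotypes share pool numbers 1 and 2 in the labels, and deviations of same-numbered pools correlated at 0.279 and 0.254. With only 2 such numbers and no shared source stated, the pools were not treated as paired. With the pool number as a replicate block, 3 members were called (Bmp2, Grem1 and Inhbb), Bmp4 had an adjusted p of 0.0505 in edgeR, 1 other pathway gene (Pmepa1) was called, and 220 genes were called in all. The log2 fold change of Smad5 then changed sign, at -0.0124.

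The sign also turned for 6 members as single pools were left out, with log2 fold changes from -0.0466 to 0.0839 for Bmp6 (below 0 without DBA/2J pool 2 or Gpnmb+ pool 1), -0.0276 to 0.433 for Tgfbr3 (below 0 without Gpnmb+ pool 2), -0.0426 to 0.394 for Fst (below 0 without DBA/2J pool 1), -0.129 to 0.0112 for Smad1 (above 0 without DBA/2J pool 2), -0.0180 to 0.0791 for Smad5 (below 0 without Gpnmb+ pool 1 or DBA/2J pool 3) and -0.146 to 0.0108 for Id3 (above 0 without DBA/2J pool 2 or Gpnmb+ pool 2). Levels per canonical transcript length, an alternative chosen after seeing the data, put Bmp2 and Smad2 first in their roles in place of Bmp7 and Smad5 and left the other 9 leading genes unchanged.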
